A study of Rattus norvegicus with 6 samples.

Results

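The genes Ifit1, Ifit2, Ifit3, Isg15, Usp18, Rsad2, Ifi44, Bst2, Ifi35 and Ifi27, which cells switch on in response to interferon, were followed across RNA-seq libraries of the rat trigeminal ganglion, the ganglion of facial sensation. All 10 listed symbols were found among the 29884 genes of the count table. They were chosen by name as one family, with the levels of interferon-stimulated genes in the conduit and injury libraries already known, so their difference between those groups is a description and carries no test. The 3 injury samples came from wild-type rats with chronic constriction of the infraorbital nerve (CCI-ION), which models trigeminal neuralgia. Wild-type rats with the same constriction, then treated with SFM-Gel @NGC-Light, gave the 3 conduit samples. The series title describes the treatment as a light-driven nerve conduit, and the labels do not define its parts. No sample without constriction and no sample with the gel or the light alone was analysed here, so every library carries the nerve injury. The labels give days 14, 15 and 16 after injury for injury samples 1 to 3 and days 17, 18 and 19 for conduit samples 1 to 3. These numbers go up by 1 from each sample to the next in label order, so it is uncertain whether they are sampling days. Batch 1 is given for injury samples 1 and 2 and batch 3 for conduit samples 2 and 3. Only batch 2, with injury sample 3 and conduit sample 1, holds both groups. Some libraries stood apart: 5 skeletal muscle markers summed to 7429 CPM in conduit sample 2 and 417 in injury sample 1, beside 7.09 to 15.3 in the other 4 libraries. The median log2 fold change of the members, 1.61 over all libraries, was 1.68 without conduit sample 2 and 1.36 without injury sample 1.

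Type I interferons bind the receptor pair Ifnar1 and Ifnar2, whose kinases activate transcription factors, among them Stat2. Stat2 acts with Irf9 in a complex that binds the interferon-stimulated response element (ISRE) in front of its target genes. The IFIT proteins bind foreign RNA, Isg15 is a ubiquitin-like protein that is joined to other proteins, and Usp18 removes it and also damps the receptor. Rsad2 (viperin) makes a nucleotide that stops viral RNA synthesis, and Bst2 (tetherin) holds budding virus particles at the cell surface. In the nervous system, neurons, glia, endothelial cells and macrophages can all express these genes after interferon exposure.

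The promoters of the members are shown first because the response element is a feature of sequence and not a level measured in these libraries. RefSeq windows of the rat build GRCr8, from 250 bases before to 50 bases after the gene start, were matched by symbol for 6 of the 10 members. The core of the element was searched as GAAANNGAAA on both strands. It was present in 5 of these 6 windows, or 83.3% (95% Wilson interval 43.6% to 97.0%), and in 1312 of all 33469 windows of that length, or 3.92%. The members were picked as genes that respond to interferon, so this share is a description and carries no test. The interval treats the 6 as a random draw of genes, which they are not. The same core followed by a C was present in 4 of the 6 and in 0.881% of all windows. The GAS motif of interferon gamma targets, TTCNNNGAA, which reads the same on both strands, was present in the Bst2 window alone of the 6 and in 8.87% of all windows. The 170 bases before the gene start are printed 5′ to 3′ on the strand of the gene, with core matches on either strand in capitals.
Bst2 (chr16:18254968-18255137, minus strand): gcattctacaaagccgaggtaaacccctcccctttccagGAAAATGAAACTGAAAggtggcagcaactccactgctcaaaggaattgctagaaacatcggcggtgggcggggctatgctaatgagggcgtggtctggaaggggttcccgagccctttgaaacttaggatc
Ifit3 (chr1:241527156-241527325, plus strand): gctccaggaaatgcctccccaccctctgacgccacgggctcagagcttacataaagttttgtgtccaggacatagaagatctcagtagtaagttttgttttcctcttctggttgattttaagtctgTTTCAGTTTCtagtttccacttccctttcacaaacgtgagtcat
Ifi44 (chr2:243303841-243304010, minus strand): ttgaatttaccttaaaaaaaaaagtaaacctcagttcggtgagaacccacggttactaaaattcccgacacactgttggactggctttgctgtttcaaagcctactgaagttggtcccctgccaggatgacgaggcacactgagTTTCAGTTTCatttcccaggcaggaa
Rsad2 (chr6:48788121-48788290, minus strand): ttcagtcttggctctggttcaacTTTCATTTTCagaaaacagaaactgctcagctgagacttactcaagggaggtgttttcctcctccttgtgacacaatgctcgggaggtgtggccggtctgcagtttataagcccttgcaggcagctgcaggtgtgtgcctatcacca
Ifi27 (chr6:128355142-128355311, plus strand): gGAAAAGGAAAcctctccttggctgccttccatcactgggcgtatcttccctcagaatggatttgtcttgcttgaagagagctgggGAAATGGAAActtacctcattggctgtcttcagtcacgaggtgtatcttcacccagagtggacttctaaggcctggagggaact
Ifi35 (chr10:86881100-86881269, plus strand): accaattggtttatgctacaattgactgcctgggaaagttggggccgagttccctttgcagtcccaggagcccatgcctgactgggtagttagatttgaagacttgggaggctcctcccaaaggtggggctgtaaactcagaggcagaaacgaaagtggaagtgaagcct

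The Bst2 sequence holds overlapping matches from positions -131 and -125, counted from the gene start, and its GAS match begins at -137. In Ifit3 and Ifi44 the match lies on the opposite strand, from -44 and -26. Ifi44 has a further match from 27 in the transcribed part of its window, not printed here. Rsad2 has a match on the opposite strand from -147, and Ifi27 has matches from -169 and -84. No match of these letters was found in the Ifi35 window.

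Isg15 showed the largest fold difference of the members. It stood at 5.49, 3.36 and 30.1 CPM (counts scaled to library size by the TMM method) in injury samples 1 to 3, and at 82.8, 61.3 and 76.3 in conduit samples 1 to 3. The lowest conduit library was thus above the highest injury library, and injury sample 3 lay well above the other two injury libraries. The group means were 13.0 ± 14.8 CPM in injury and 73.4 ± 11.0 in conduit (SD, n = 3), a log2 fold change of 2.50 (SE 0.85). Usp18, the protease that reverses Isg15 attachment, followed it closely. It was at 5.15, 3.67 and 30.5 CPM in injury and at 70.8, 53.6 and 56.2 in conduit, with a log2 fold change of 2.20 (SE 0.84). The ratio of Usp18 to Isg15 CPM stayed between 0.737 and 1.09 in the 6 libraries, although each gene varied more than 10-fold among them.

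The 3 IFIT genes also stood higher in conduit, but not in the same proportion in each library. Ifit1 was at 4.60, 11.1 and 43.6 CPM in injury and at 96.2, 67.9 and 38.0 in conduit, so that conduit sample 3 lay below injury sample 3 and the groups overlapped. Its log2 fold change was 1.77 (SE 0.86). Ifit2 was at 10.6, 11.5 and 32.7 CPM in injury and at 78.6, 50.3 and 47.2 in conduit, a log2 fold change of 1.68 (SE 0.49). Ifit3, the partner of the other IFIT proteins in their complex, was at 3.13, 3.07 and 14.5 CPM in injury and at 39.6, 27.0 and 22.7 in conduit, a log2 fold change of 2.11 (SE 0.67). For Ifit2 and Ifit3 every conduit library was above every injury library. The ratio of Ifit1 to Isg15 CPM ran from 0.498 in conduit sample 3 to 3.32 in injury sample 2, a wider range than that of Usp18 to Isg15. Ifit2 exceeded Ifit3 by 3.40 and 3.73 times in injury samples 1 and 2 and by 1.86 to 2.25 times in the other 4 libraries.

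Rsad2 and Ifi44 were also higher in conduit by fold change, with injury sample 3 well above the other injury libraries. Rsad2 was at 14.9, 27.2 and 51.9 CPM in injury and at 77.1, 39.5 and 60.2 in conduit, a log2 fold change of 0.91 (SE 0.47). Conduit sample 2 lay below injury sample 3, so its groups overlapped. Ifi44, an interferon-induced cytoplasmic protein, was at 15.2, 14.5 and 53.3 CPM in injury and at 80.5, 66.7 and 78.7 in conduit, a log2 fold change of 1.44 (SE 0.53). Its groups did not overlap, but injury samples 1 and 2 were far below injury sample 3.

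Bst2 and Ifi35 varied less among the injury libraries than the members described so far. Bst2 was at 21.1, 15.7 and 36.1 CPM in injury and at 80.3, 66.8 and 64.8 in conduit, a log2 fold change of 1.54 (SE 0.30). Ifi35, which forms a complex with the protein Nmi, was at 11.5, 9.98 and 12.6 CPM in injury and at 22.8, 21.4 and 22.7 in conduit, a log2 fold change of 0.97 (SE 0.12). All conduit libraries of both genes lay above all injury libraries, and injury sample 3 was hardly set apart for Ifi35. Its libraries spanned 0.34 log2 units in injury and 0.09 in conduit, the narrowest ranges of the members.

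Ifi27, a small hydrophobic protein of intracellular membranes, behaved unlike the others. It was at 303, 201 and 260 CPM in injury and at 293, 306 and 414 in conduit, a log2 fold change of 0.41 (SE 0.19). The groups overlapped, and the highest library of each group was not the one that was highest for the other members. Ifi27 made up 76.8%, 66.8% and 46.0% of the summed CPM of the members in injury samples 1 to 3, and 31.8% to 47.0% in conduit, so sums below leave it out.

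**Figure D1:**
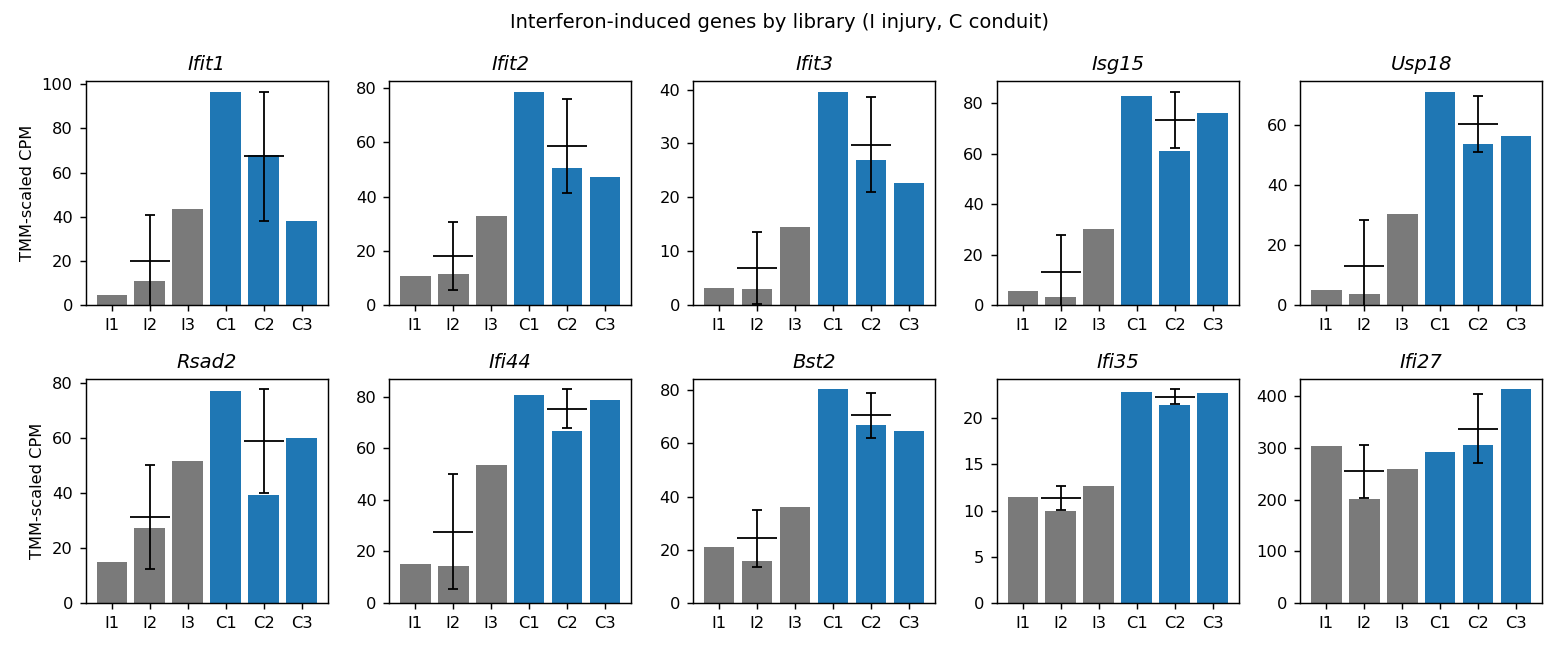
TMM-scaled CPM (vertical axis, from 0) of each member in injury samples 1 to 3 (I1 to I3, grey) and conduit samples 1 to 3 (C1 to C3, blue), with the mean (black line) and SD (bar) of each group of 3. Injury sample 3 is the tallest grey bar in every panel except Ifi27, and the groups overlap in Ifit1, Rsad2 and Ifi27.

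Levels can be compared between genes only per length, in FPKM (fragments per kilobase of gene length, scaled to library size). In conduit the order was Ifi27 at 382 ± 63.4 FPKM, Isg15 at 109 ± 18.2, Bst2 at 43.5 ± 6.62, Usp18 at 32.4 ± 5.99, Ifit1 at 32.3 ± 14.9 and Ifi44 at 25.0 ± 2.81 (SD, n = 3). Ifi35 at 20.4 ± 1.05, Ifit2 at 17.0 ± 5.56, Rsad2 at 15.0 ± 5.13 and Ifit3 at 14.4 ± 4.72 FPKM came below them. Neighbours in this order whose libraries did not overlap were Ifi27 and Isg15, Isg15 and Bst2, and Ifi44 and Ifi35. The other neighbours overlapped. In injury only Ifi27, at 299 ± 50.3 FPKM, was clear of the next gene, Isg15, at 19.9 ± 22.9. The other members had injury means between 3.45 FPKM for Ifit3 and 15.5 for Bst2, and each overlapped its neighbours.

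In counts, 10 of 10 members were higher in conduit by the fitted fold change, with a median log2 value of 1.61, beside 0.0017 over the 16478 genes tested. All 10 passed the filter on low counts, with at least 126 counts in every library. Every conduit library was above every injury library for 7 of 10, where 5.41% of all genes tested showed this and 4.22% showed the reverse. In edgeR's quasi-likelihood test across all genes, 0 of 10 members passed an adjusted p of 0.05 (0% of all genes passed as higher and 0.00607%, 1 gene, as lower). At an unadjusted edgeR p under 0.05 there were 7 of 10 members, beside 2.99% of all genes as higher and 2.36% as lower. DESeq2 called 3 members, Ifit2, Bst2 and Ifi35, and 0.654% of the genes it tested as higher. Because the members were picked with this contrast known, nothing is read from these counts.

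Libraries of one group also differed from each other in these genes. In injury, sample 3 was the highest library for 9 of 10 members, a position it held for 24.3% of all genes tested. In conduit, sample 1 was the highest for 9 of 10, beside 35.7% of all genes. The same 9 genes, all but Ifi27, were highest in the batch 2 library in both groups, beside 11.7% of all genes. Injury sample 3 exceeded the mean of injury samples 1 and 2 by a median of 1.70 log2 units over the members, from 0.08 for Ifi27 and 0.23 for Ifi35 to 2.79 for Isg15 and 2.80 for Usp18. Conduit sample 1 exceeded the mean of conduit samples 2 and 3 by a smaller median of 0.33, from -0.28 for Ifi27 to 0.92 for Ifit1. The genes with the widest gap among injury libraries were thus Ifit1, Isg15 and Usp18, with ranges of 3.23, 3.14 and 3.04 log2 units. Among conduit libraries Ifit1 again had the widest range, 1.34 log2 units, whereas Isg15 and Usp18 spanned 0.43 and 0.40.

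**Figure D2:**
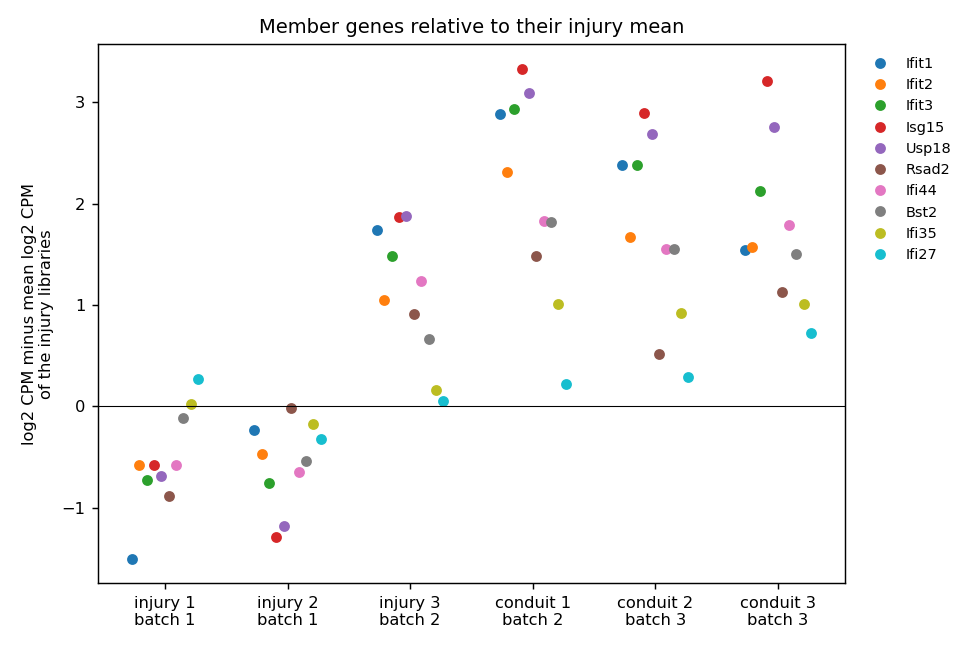
Log2 CPM of each member minus its mean over the injury libraries (vertical axis) in the 6 libraries, with their batches from the labels; each colour is a gene. Injury sample 3 lies above the other injury libraries for every gene except Ifi27, and the points of Isg15 and Usp18 lie among the highest in the conduit libraries.

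The group difference was larger when injury sample 3 was left out. Without it the median log2 fold change of the members was 2.38, with Isg15 at 4.05 (SE 0.29), Usp18 at 3.77 (SE 0.24), Ifit3 at 3.26 (SE 0.29) and Ifit1 at 3.10 (SE 0.58). Then 5 of 10 members, Ifit3, Isg15, Usp18, Ifi44 and Bst2, passed edgeR's adjusted p of 0.05, beside 0.184% of all genes as higher. With any other single library left out, 0 members passed. Without both batch 2 libraries 5 members passed, of 19 genes called in all. These counts come from the contrast that chose the genes and so are again only a description. Within batch 2, which has 1 library of each group and so no test, conduit sample 1 exceeded injury sample 3 in all 10 members, by a median of 1.15 log2 units. These values were 1.46 for Isg15, 1.44 for Ifit3, 1.22 for Usp18, 0.59 for Ifi44, 0.57 for Rsad2 and 0.17 for Ifi27. Ifi35 moved least over these sets of libraries, at 0.85 within batch 2 and 1.06 without injury sample 3. Outside batch 2, batch and group cannot be told apart. Every labelled day of conduit is later than every labelled day of injury, also within batch 2. Day and group thus cannot be told apart at all.

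**Figure D3:**
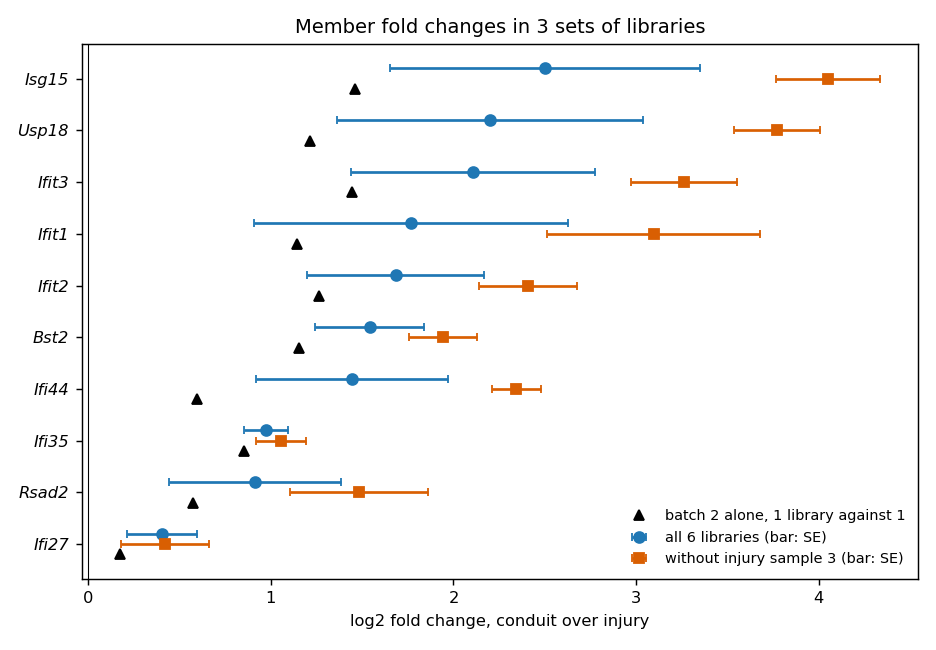
Log2 fold change of conduit over injury (horizontal axis) per member from all 6 libraries (circles) and without injury sample 3 (squares). Both carry SE bars derived from edgeR's F statistic. Triangles show the batch 2 libraries alone (1 against 1, no error). All points lie above 0; those for Isg15 run from 1.46 to 4.05 and those for Ifi35 from 0.85 to 1.06.

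Interferons themselves were not detectable at this depth. Of 10 ligand genes in the table, among them Ifnb1, the alpha interferons and Ifng, 5 had 0 counts in every library and none had more than 1 count in a library. A count of 0 allows up to 3 counts, or 0.0710 to 0.0753 CPM. For the 14 receptor and JAK-STAT genes the median log2 fold change was 0.0042, with 7 above 0 and 7 below. Ifnar1 was at 94.9 ± 2.61 CPM in injury and 93.4 ± 6.27 in conduit, and Ifnar2 at 15.1 ± 3.32 and 15.7 ± 2.59 (SD, n = 3). Stat2 and Irf9 had larger fold changes than the receptors. Stat2 was at 50.2 ± 16.3 CPM in injury and 108 ± 10.5 in conduit, with a log2 fold change of 1.10 (SE 0.22; edgeR adjusted p = 0.505). Irf9 was at 37.9 ± 18.2 CPM in injury and 78.7 ± 5.84 in conduit, with a log2 fold change of 1.05 (SE 0.31; edgeR adjusted p = 0.744). For both genes every conduit library was above every injury library. Socs3, a feedback inhibitor of cytokine receptors, was at 14.3 ± 4.69 CPM in injury and 9.92 ± 1.21 in conduit, with overlap.

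The machinery that joins Isg15 to proteins showed the same sign as Isg15. Uba7, its activating enzyme, was at 4.77, 6.41 and 21.9 CPM in injury and at 36.6, 29.2 and 20.6 in conduit, with overlap. Ube2l6, its conjugating enzyme, was at 18.6 ± 5.33 CPM in injury and 32.5 ± 3.70 in conduit, without overlap and with a log2 fold change of 0.80 (SE 0.21; edgeR adjusted p = 0.650). Herc6, the rodent ligase for Isg15, was at 3.85, 4.97 and 33.5 CPM in injury and at 42.9, 36.6 and 15.5 in conduit. Injury sample 3 thus lay within the conduit range for Uba7 and Herc6. Trim25, a ubiquitin ligase of RNA sensing, had a log2 fold change of 0.96 (SE 0.34). Its groups also overlapped, with injury sample 3 at 10.07 CPM and conduit sample 3 at 10.02. Of these 4 genes edgeR called 0, 2 were higher at an unadjusted edgeR p under 0.05, and 1 was called by DESeq2.

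Genes linked to the members by family, name, interaction or position did not all share the direction of the members. Of 9 tested, 7 had a fold change above 0 and 2 below, with a median of 0.47. The 2 below were Ifit1bl and Ifitm1, the latter at only -0.13 (SE 0.19). Ifitm3, a membrane protein that blocks virus entry, was at 38.6 ± 13.6 CPM in injury and 98.0 ± 13.4 in conduit, a log2 fold change of 1.34 (SE 0.24). Cmpk2, a nucleotide kinase encoded beside Rsad2, had a log2 fold change of 0.77 (SE 0.17), Ifi27l2b 0.50 (SE 0.14) and Nmi, the partner of Ifi35, 0.47 (SE 0.13). Ifi44l and Ifit1bl were picked after their values were seen. Ifi44l had a log2 fold change of 1.36 (SE 0.39). Ifit1bl, a paralog of Ifit1, was at 4.65, 6.10 and 6.53 CPM in injury and at 3.91, 3.19 and 3.74 in conduit, below injury in every library. Reads of IFIT paralogs, and of Ifi27 and its relatives, can be divided between copies, so these levels are uncertain. Of the 9, edgeR called 0. Its unadjusted p was under 0.05 for 5 as higher and 1 as lower, while 3 were called higher by DESeq2.

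Antiviral effectors and interferon-induced GTPases had fold changes above 0 throughout, and regulatory factors were mixed. The 12 genes of the OAS and Mx list, mostly antiviral enzymes, were all above 0 with a median of 1.83, and 11 had no overlap. Mx1 had a log2 fold change of 2.34 (SE 0.51), Oas1i 1.99 (SE 0.49), Oasl 1.75 (SE 0.43) and Zc3hav1 0.60 (SE 0.16). The 9 interferon-induced GTPases had a median of 1.33, with 9 above 0 and 7 without overlap. Gbp1 stood at 0.149, 0.142 and 0.723 CPM in injury and at 4.27, 8.89 and 2.36 in conduit. Gbp2, Gbp5 and Irgm2 had log2 fold changes of 1.22 (SE 0.34), 1.23 (SE 0.36) and 1.33 (SE 0.44). The 15 regulatory factors and sensors had a median of 0.52, 11 above 0 and 4 below. Irf7, which amplifies interferon production, was at 22.8, 13.9 and 99.6 CPM in injury and at 222, 171 and 169 in conduit. Dhx58 and Ifih1, sensors of viral RNA, had log2 fold changes of 1.87 (SE 0.61) and 1.19 (SE 0.38), and Tlr3, the endosomal sensor of double-stranded RNA, 0.93 (SE 0.39). EdgeR called 0 genes of these 3 lists and of the receptor list. At an unadjusted edgeR p under 0.05 there were 10 higher among OAS and Mx genes, 6 among GTPases, 4 among factors and sensors and 3 among receptor and JAK-STAT genes. DESeq2 called 5, 4, 0 and 3 of them as higher.

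**Figure D4:**
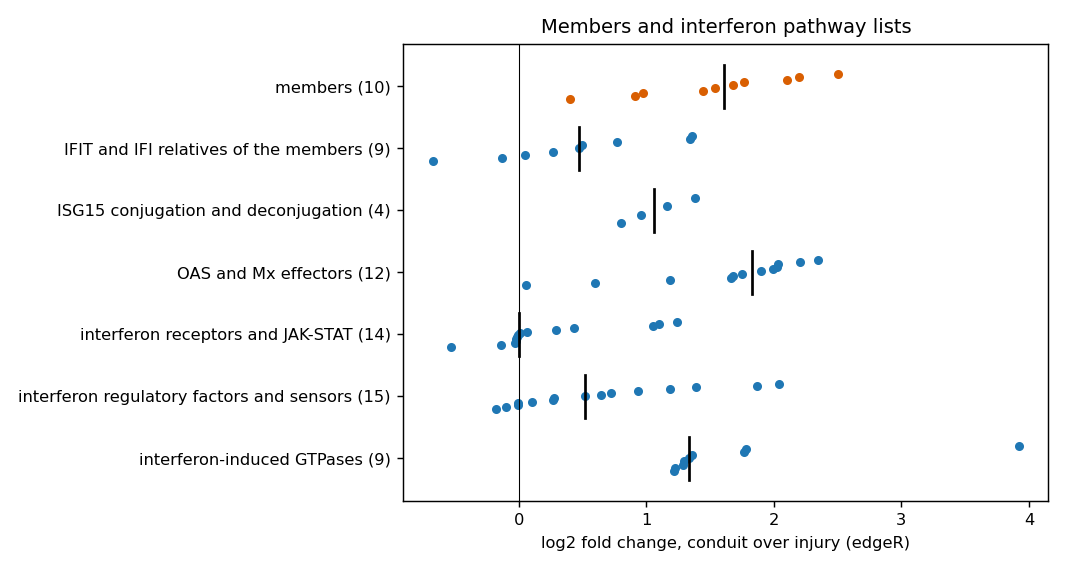
Log2 fold change of conduit over injury from edgeR (horizontal axis) for each tested gene (points) of the members and of 6 interferon pathway lists, with the number of genes in brackets and the median as a vertical line. Medians lie at 1.61 for the members and 0.0042 for receptors and JAK-STAT genes.

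The genes whose library profile was most like the members were named by the Pearson correlation of log2 CPM with the mean standardised profile of the members over the 6 libraries. Among 1092 eligible genes the closest were Oas1i (r = 0.998), Lgals3bp (0.997), Mx2 (0.997), Ddx60 (0.996), Oas1a (0.995), Xaf1 (0.994), Tap1 (0.994) and Rig1 (0.993). These points share 6 libraries and the group difference, and the values are a description. Lgals3bp, a secreted glycoprotein, was at 74.6, 73.3 and 146 CPM in injury and at 224, 178 and 218 in conduit. Tap1, which carries peptides to class I molecules, was at 15.0, 14.7 and 29.4 CPM in injury and at 44.3, 33.1 and 40.4 in conduit. Among the members, correlation with the mean profile of the other 9 was 0.995 for Isg15 and 0.993 for Usp18, and lowest for Rsad2 at 0.844 and Ifi27 at 0.567.

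Each library held 40172473 to 41903629 counts. Sensory neuron markers summed to 6466 to 9805 CPM and satellite glia markers to 1820 to 4297 CPM over the 6 libraries, so the markers of the labelled ganglion were present in each. In bulk RNA, fewer cells of a type and less RNA per cell cannot be told apart. The summed CPM of the members without Ifi27 was 91.7, 100.1 and 305 in injury and 629, 454 and 467 in conduit. Macrophage markers, 10 genes, had sums of 106 to 169 CPM across injury libraries and 115 to 263 across conduit libraries, highest in conduit sample 1, which was also highest for 9 members. In injury they were highest in sample 2, at 169 CPM, beside 106 in sample 1 and 129 in sample 3. The sums hide differences between these markers: 6 of the 10 had a fold change above 0 and 4 below. For 2 of the 10, C1qb and C1qc, every conduit library was above every injury library, beside 5.41% of all genes tested. B and plasma cell markers, 7 genes, summed to 2.88, 41.4 and 19.7 CPM in the injury libraries and 3.84 to 4.32 in those of conduit. The plasmacytoid dendritic cell list, 6 genes, summed to 175 to 198 CPM over injury libraries and 172 to 198 over conduit libraries. Pacsin1 made up most of this, at 154.7 to 189.7 CPM, with Il3ra at 7.83 to 17.2 CPM and Spib at 0.0994 to 10.6. Siglech, Ccr9 and Klk1 reached at most 0.0724, 0.0241 and 0.176 CPM. Schwann cell markers, 6 genes, summed to 28813 to 35187 CPM across injury libraries and 42103 to 48326 across conduit libraries, without overlap. Erythroid markers, 7 genes, summed to 4435 to 5285 CPM across injury libraries and 510.3 to 1272 across conduit libraries, without overlap. Neutrophil markers, 6 genes, summed to 53.5, 621 and 117 CPM in injury samples 1 to 3 and to 10.9, 30.8 and 12.1 in conduit samples 1 to 3, also without overlap. T and NK cell markers and endothelial markers overlapped between groups. The part of these cell types in the levels of the members was not tested.

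**Figure D5:**
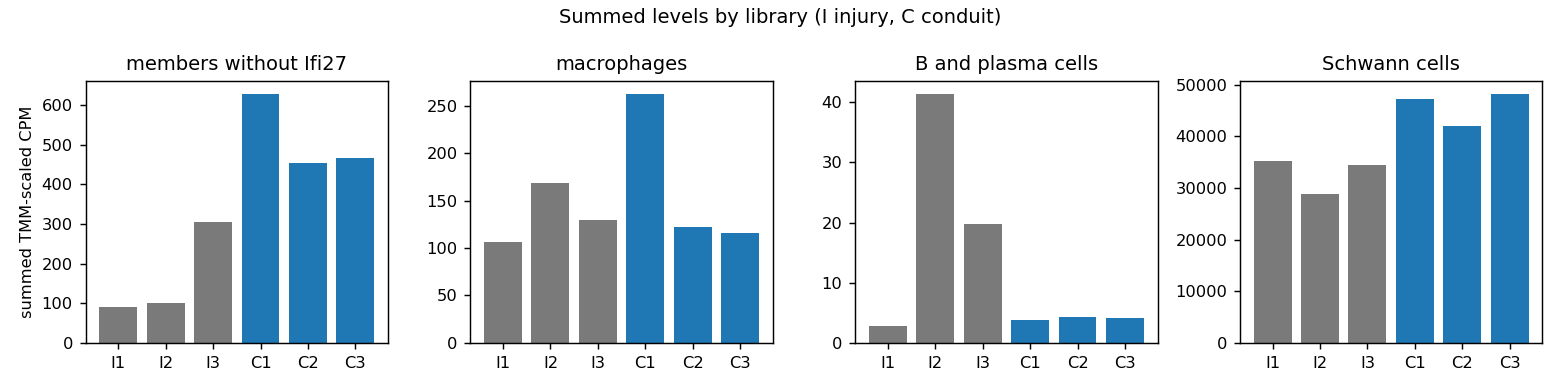
Summed TMM-scaled CPM (vertical axes, from 0, each with its own scale) of the members without Ifi27 and of macrophage, B and plasma cell, and Schwann cell markers in injury (I1 to I3, grey) and conduit (C1 to C3, blue) libraries. The members are at 91.7, 100.1 and 305 CPM in injury samples 1 to 3 and at 629, 454 and 467 in conduit. Macrophage markers are at 106, 169 and 129 CPM in injury samples 1 to 3 and at 263, 122 and 115 in conduit.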

How the data were processed

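RNA from trigeminal ganglia was sequenced in 3 injury and 3 conduit samples. The deposited counts are whole reads per gene symbol, unscaled; HISAT2, HTSeq, fastp, SAMtools and DESeq2, and the build mRatBN7.2, appear in the submitters' processing notes. The annotation, strand setting and tool versions were not given in the sources used here. Reads of overlapping or antisense genes therefore cannot be told apart. The deposited FPKM values rest on those counts: for 13288 of 13288 genes with at least 50 counts, both gave the same length (within 0.1%) in every library, so they are no second measurement.

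The count table was fitted in R 4.3.3 with edgeR 4.0.16: filterByExpr (minimum count 10), TMM scaling, robust quasi-likelihood F test, Benjamini-Hochberg adjustment over all 16478 genes tested and a threshold of 0.05. DESeq2 1.42.0 and limma 3.58.1 were alternatives, with other scalings, filters, a replicate block, a batch term and each library left out. The fits were tested on simulated data. The SE of a log2 fold change was its absolute value divided by the square root of edgeR's F statistic. Log2 CPM used a prior count of 2. Groups came from sample titles, and the labels do not say that samples are separate animals. The p-values therefore weigh the group difference only against the spread between samples, which may be technical.

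Members and gene lists were chosen with earlier results of these data known. Named were all members, up to 4 genes per list with the smallest edgeR p, fixed receptor, signalling and Isg15 pathway genes, and the 8 genes most like the members with mean log2 CPM of at least 1, SD of at least 0.5 and a symbol not beginning with LOC, RGD or a clone prefix. One gene that this rule names is not reported here. Promoter sequences are from RefSeq, build GRCr8.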

Additional observations from a re-analysis of the deposited data

How the results depend on the processing

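The median log2 fold change of the members stayed positive under all alternatives run, as did the fold change of each member. It was 1.55 to 1.79 under other scalings, filters, tools and the replicate block, 1.15 with batch as a term and 1.15 in batch 2 alone. Only batch 2 holds both groups, so the batch term compares the same libraries as batch 2 alone, 1 against 1. Their equal values are therefore no separate check. With each library left out it ran from 1.36 to 2.38, highest without injury sample 3, and was 2.22 without both batch 2 libraries, an alternative chosen after seeing the data. The number of members whose conduit libraries were all above injury was 7 to 9 with each library left out, beside 7.69% to 14.1% of all genes tested. It was 10 without the batch 2 libraries, beside 12.3%. With fewer libraries more genes separate (5.41% with all 6), so nothing is read from the larger counts. The count of genes called over the whole table was less stable. It was 1 as reported, 6 without a filter, 210 by DESeq2, 7 and 3 by limma on log2(FPKM + 1) and log2(FPKM + 0.1), 19 without the batch 2 libraries and 0 to 38 with each library left out in turn. Leaving out injury sample 1 gave 38 and leaving out injury sample 3 gave 35. For conduit, dropping sample 1 gave 6 and dropping sample 3 gave 0, with 1215 genes at an unadjusted edgeR p under 0.05. It was 0 with the replicate block, with 554 genes at an unadjusted edgeR p under 0.05, and 0 with batch as a term, with 257. Same-numbered samples correlated at -0.42, 0.06 and -0.07 in their deviations from group means. Samples with different numbers ran from -0.35 to 0.33. Deviations from a mean of 3 libraries depend on each other, so these values cannot decide whether the numbers pair the samples. The cause of the changes in the count of genes called was not tested. Promoter matches covered 66.7% of the 6 member promoters when a following C was required. Depth limits the interferon ligands, all at 0 or 1 count, but not the members.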
